A study of Homo sapiens with 9 samples.

Results

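The proteasome is the protease complex that degrades ubiquitin-tagged proteins, and its genes were followed in SNU5 cells given ramucirumab either free or carried on gold nanoparticles. Members were all protein-coding genes whose symbol is PSMA, PSMB, PSMC, PSMD, PSME or PSMG followed by a number, pseudogenes left out. All 47 were found among the 60880 gene identifiers of the count files, and 43 passed the filter on low counts in each comparison. PSMB8, PSMB9, PSMA8 and PSMB11 did not pass it and were not tested.

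SNU5 is an established line of human gastric carcinoma cells. Ramucirumab, a therapeutic antibody, binds the VEGF receptor KDR. RNA was sequenced from 9 libraries. The NR group (3 libraries) received antibody linked through polyethylene glycol to gold nanorods, the SP group (3 libraries) received it linked in the same way to gold nanospheres, and the Ab group (3 libraries) received the antibody alone. Every group had 8 μg/mL of antibody for 24 h, so the antibody is common to all 3 groups and no untreated library was analysed here. The labels number the replicates without saying whether they were separate cultures, while the study's text calls its replicates biological and its experiments independently repeated, without describing the cultures behind these libraries. P-values measure the spread between these libraries. Library totals ran from 13863155 counts (NR replicate 2) to 26318227 counts (Ab replicate 2). A count of 3, used as the floor below which a level was not read, was worth 0.114 to 0.216 CPM, counts scaled to the library's size.

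A proteasome core is a barrel of stacked rings, with outer alpha rings (PSMA) that gate entry and inner beta rings (PSMB) that hold the proteolytic sites. A cap (PSMC and PSMD) sits on the barrel, its base unfolding substrates with ATPases and its lid removing ubiquitin. In the immunoproteasome, which interferon induces and which makes peptides for MHC class I, PSMB8, PSMB9 and PSMB10 take the places of the catalytic PSMB5, PSMB6 and PSMB7, and the activator formed by PSME1 and PSME2 can replace a cap. PSMG proteins, with PSMD5, PSMD9 and PSMD10, assist assembly.

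The labelled cell type was checked against its markers. KRT8, KRT18, KRT7 and CLDN4, all epithelial genes, were abundant in every library, while KRT19 did not exceed 1 count in any. Of 8 leukocyte markers, 6 were at 3 counts or fewer in every library, PTPRC, the pan-leukocyte gene, among them. KDR, the antibody's target, did not exceed 1 count. Several markers of other cell types moved with the groups. The fibroblast list had a summed level of 105 to 119 CPM in the particle libraries and 45.4, 42.1 and 17.8 CPM in Ab. Over the 9 libraries COL1A1 was its most abundant gene by the mean, although LUM was higher in the mean of the NR group. LUM, a fibroblast matrix gene, held 986, 514 and 590 counts in the NR group, 824, 891 and 802 in the SP group and 18, 24 and 20 in Ab. In the endothelial list, CDH5 held 556, 304 and 317 counts in the NR group, 424, 491 and 461 in the SP group and 69, 98 and 105 in Ab. The epithelial adhesion gene CDH1 held 150, 79 and 88 counts in the NR group, 134, 159 and 149 in the SP group and 5, 5 and 9 in Ab. The Ab libraries therefore stood apart from the particle libraries in all of these genes, and the part of this in the proteasome results was not tested. The epithelial list did not move one way. KRT7 held 26032, 14329 and 15864 counts in the NR group, 29792, 23562 and 22316 in the SP group and 45235, 54788 and 44329 in Ab, lower in both particle groups, while KRT8, KRT18, EPCAM and CDH1 were higher in both and CLDN4 passed in neither. The titles name gastric cancer cells for every library, and the study's text names SNU5 as the cells sequenced. Whether all libraries came from the same stock of cells was not tested, and a difference in stock between Ab and the particle groups cannot be told apart from the treatment in any fold against Ab. In bulk RNA, fewer cells of a type and less RNA per cell cannot be told apart.

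The immunoproteasome genes that could be tested carried the largest rises. Their promoters are shown because they are the members with the largest rises in both comparisons and because a script found the same motif, GAAA then any 2 bases then GAAA, in all 3. The sequences are from RefSeq, 300 bases each, from 250 before to 50 after the start, and were matched exactly to GRCh37 at chr16:67970704-67971003 (minus strand), chr14:24605153-24605452 (plus strand) and chr14:24615770-24616069 (minus strand). Each is written 5′ to 3′ in the direction of the gene. Capitals mark that motif on either strand, the core of an interferon-stimulated response element.
PSMB10: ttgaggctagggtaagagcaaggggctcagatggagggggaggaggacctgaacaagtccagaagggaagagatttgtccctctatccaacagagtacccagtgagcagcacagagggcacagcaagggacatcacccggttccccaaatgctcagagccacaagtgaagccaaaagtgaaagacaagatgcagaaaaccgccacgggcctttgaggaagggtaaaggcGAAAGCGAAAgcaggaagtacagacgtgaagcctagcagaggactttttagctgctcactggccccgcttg
PSME1: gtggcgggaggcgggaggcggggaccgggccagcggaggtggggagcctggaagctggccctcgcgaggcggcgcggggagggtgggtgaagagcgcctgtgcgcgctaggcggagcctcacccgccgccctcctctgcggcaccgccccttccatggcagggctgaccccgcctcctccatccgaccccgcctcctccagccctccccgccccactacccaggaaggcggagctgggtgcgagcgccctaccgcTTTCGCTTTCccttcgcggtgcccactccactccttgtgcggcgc
PSME2: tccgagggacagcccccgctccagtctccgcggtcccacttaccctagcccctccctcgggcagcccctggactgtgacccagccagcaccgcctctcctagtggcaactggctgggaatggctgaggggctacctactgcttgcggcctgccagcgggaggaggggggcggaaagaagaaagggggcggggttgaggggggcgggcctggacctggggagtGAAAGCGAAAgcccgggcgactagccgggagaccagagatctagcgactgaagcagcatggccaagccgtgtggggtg
The promoter of PSMB3, the core gene with the largest rise, lies at chr17:36908744-36909043 (plus strand). Its capitals mark TGACNNNGC, the core of the antioxidant response element.
PSMB3: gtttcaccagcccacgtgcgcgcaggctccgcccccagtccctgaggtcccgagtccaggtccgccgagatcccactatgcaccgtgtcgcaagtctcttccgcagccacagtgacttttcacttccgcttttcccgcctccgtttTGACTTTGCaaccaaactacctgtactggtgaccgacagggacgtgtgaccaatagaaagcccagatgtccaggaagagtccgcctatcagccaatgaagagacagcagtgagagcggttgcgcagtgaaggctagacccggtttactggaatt

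Promoters of 41 of the 47 members were in the RefSeq table. The motif of the immunoproteasome promoters was found on either strand in 7 members (PSMA4, PSMB4, PSMB8, PSMB10, PSME1, PSME2 and PSMG4), against 4.38% of the 27305 genes in the table. It was in 4 of 5 immunoproteasome genes and in 0 of 16 cap genes with a promoter. TGACNNNGC was found in 15 of 41, against 16.1% of all genes. It was in 3 of 5 immunoproteasome genes, 2 of 10 core genes and 5 of 16 cap genes with a promoter. The promoters of PSME1 and PSME2 shown above also hold it, unmarked. These were 2 of 7 motifs that were searched on both strands and whose matches were seen before these were chosen to be shown. The other 5 were TGANTCA (3 members, 9.37% of genes), CCAAT (20 members, 39.7%), TTCCGG (21 members, 20.1%), GGAANNNCC (14 members, 23.5%) and GCCNNNGGC (15 members, 26.6%). Matches may overlap between motifs, and a match is a description of these letters in this window.

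PSMB10, PSME1 and PSME2 rose more than 2-fold in both particle groups, although PSME1 in SP fell just under 2-fold without Ab replicate 2 (0.99) or Ab replicate 3 (0.97) and with the trend with length and GC content removed (0.99). PSMB10 (chr16:67968409-67970767, minus strand), the inducible subunit with trypsin-like activity, held 162, 86 and 85 counts in the NR group, 139, 131 and 119 in the SP group and 19, 33 and 23 in Ab. Its level was 6.33, 6.19 and 5.31 CPM in the NR group, 6.39, 5.72 and 5.80 in the SP group and 0.973, 1.24 and 1.10 in Ab. All 6 particle libraries were above all 3 Ab libraries, and the NR and SP libraries overlapped. The log2 fold change against Ab was 2.38 ± 0.20 (adjusted p = 1.56e-11) in NR and 2.39 ± 0.19 (adjusted p = 1.22e-11) in SP. This and every adjusted p here, apart from that of the ratio of PSMB10 to PSMB7, came from edgeR (quasi-likelihood, Benjamini-Hochberg over all genes tested). On the GRCh37 annotation 56.1% of the bases of its canonical transcript are shared with another protein-coding gene on the same strand, which held 105 counts over the 9 libraries, so its counts and its fold are uncertain.

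PSME1 (chr14:24605372-24608176, plus strand), the alpha subunit of the activator, had 137, 128 and 135 CPM in the NR group, 126, 126 and 127 in the SP group and 68.5, 57.7 and 55.9 in Ab. PSME2 (chr14:24612571-24616779, minus strand), the beta subunit, had 112, 108 and 109 CPM in the NR group, 102, 102 and 108 in the SP group and 50.3, 49.7 and 50.4 in Ab. The partners had like levels per length, 62.9 and 63.3 CPM per kilobase in Ab and 138 for both in the NR group, and every particle library exceeded every Ab library. The log2 fold change of PSME1 was 1.11 ± 0.06 (adjusted p = 1.93e-13) in NR and 1.03 ± 0.06 (adjusted p = 1.3e-13) in SP. That of PSME2 was 1.10 ± 0.05 (adjusted p = 4.96e-17) in NR and 1.02 ± 0.06 (adjusted p = 3.19e-15) in SP.

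PSMB8, the inducible chymotrypsin-like subunit, had 0 counts in all 9 libraries. PSMB9, the inducible subunit that takes the place of PSMB6, had 2, 1 and 5 counts in the NR group, 6, 1 and 0 in the SP group and 0, 0 and 1 in Ab. Neither value can be read as low expression in the cells, because most genes around them were at the floor as well. Of 36 protein-coding genes within 0.5 Mb of PSMB8, 83.3% had 3 counts or fewer in every library, against 29.6% of all protein-coding genes. RPS18, a ribosomal protein gene 0.43 Mb away, had 1 to 6 counts per library, whereas the 30 other RPS genes had a median of 9021.5. TUBB, a tubulin gene on the other side at -2.12 Mb, had 1 to 7. BRD2, 0.13 Mb from PSMB8, was above the floor, with a mean of 8.48 CPM over the 9 libraries. These neighbours were chosen after their values were seen. The share at the floor was 66.4% from 3.5 to 0.5 Mb before PSMB8 in coordinates, and 31.2% both farther out on that side and beyond 0.5 Mb on the other. No fold or ratio is given for PSMB8 or PSMB9, and TAP1, TAP2 and TAPBP, peptide-loading genes of the same region, had 3 counts or fewer in every library.

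PSMB10 was also set against PSMB7, whose place it takes, as a ratio of counts. PSMB7, the constitutive trypsin-like subunit, had 299.9, 291 and 287 CPM in the NR group, 315, 288 and 296 in the SP group and 280.2, 263 and 266 in Ab. PSMB10 counts were 2.11, 2.13 and 1.85% of those of PSMB7 in the NR group, 2.03, 1.99 and 1.96% in the SP group and 0.347, 0.473 and 0.414% in Ab. The particle groups did not overlap Ab. The log2 ratio was higher by 2.31 in NR and by 2.29 in SP. Each had p = 0.10 by a two-sided exact permutation test, the smallest that 3 against 3 libraries allow. After Benjamini-Hochberg adjustment over the 3 comparisons of this ratio it was 0.15. The plan held 9 tests, 3 ratios in 3 comparisons, and those with PSMB8 or PSMB9 were not run. NR and SP differed by 0.03 (exact permutation p = 0.80). The ratio carries the uncertainty of the PSMB10 counts.

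Over all members the shift against Ab was modest. In NR against Ab, 72.7% of the 15009 genes tested passed an adjusted p of 0.05, 36.4% higher and 36.4% lower. Of the 43 members tested, 21 were higher, 11 lower and 11 did not pass, and their median log2 fold change was 0.13 against -0.01 for all genes tested. In SP against Ab, 73% of 15068 genes passed, 36.4% higher and 36.6% lower. Here 22 members were higher, 7 lower and 14 did not pass, again with a median of 0.13 against -0.01 for all genes. The share of members past the threshold was thus near the background in both comparisons. At 2-fold or more, 12.4% of genes were higher in NR and 3 members were, and 12.6% in SP with the same count of 3. At 2-fold or more, 10.3% of genes were lower in NR with 0 members, and 10.6% in SP with 1. At 1.5-fold or more, 8 members were higher and 3 lower in each comparison, against 22.1% and 20.2% of all genes in NR and 21.9% and 20.5% in SP. The libraries of the groups did not overlap for 34 members in NR and 32 in SP, against 74.7% and 75% of all genes tested. Both comparisons share the Ab libraries, so their values are set side by side and are not separate evidence. Members took 0.598, 0.584 and 0.581% of counts in the NR group, 0.606, 0.577 and 0.588% in the SP group and 0.518, 0.513 and 0.515% in Ab.

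**Figure D1:**
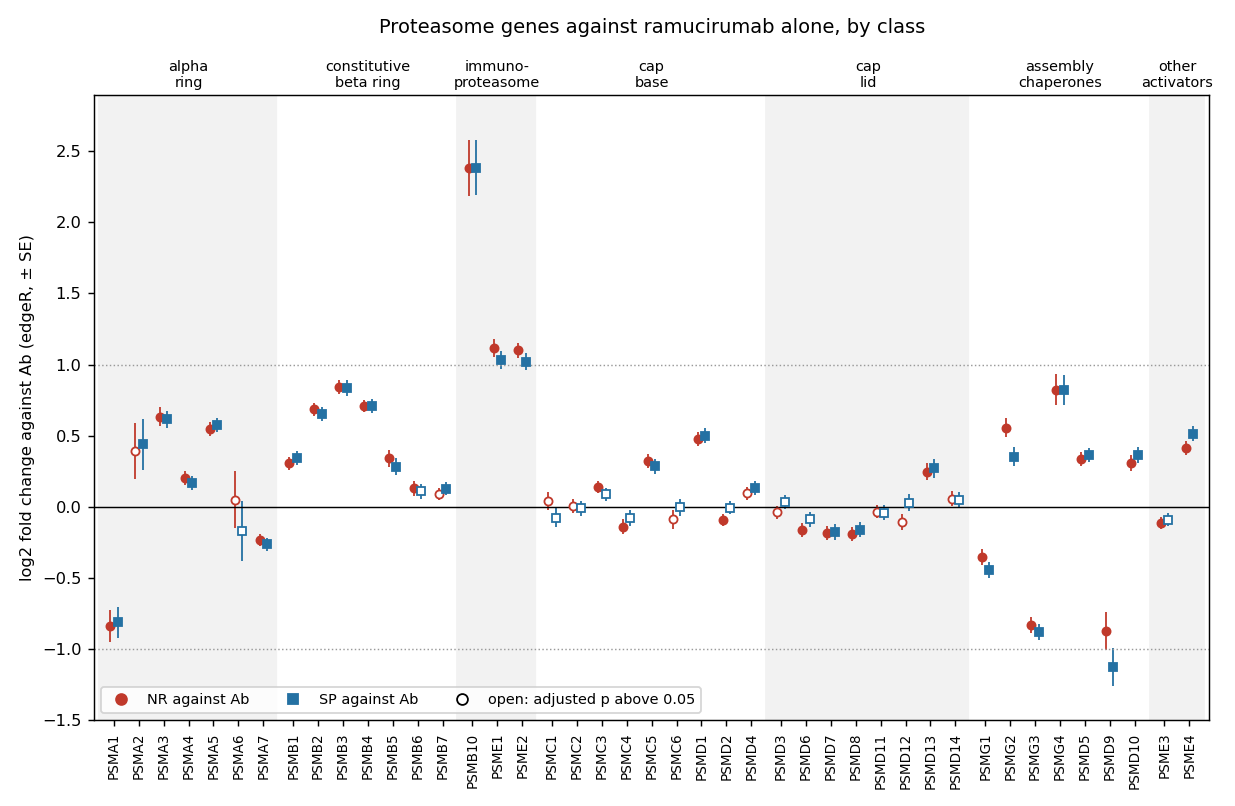
Log2 fold change against Ab (edgeR, error bars ± SE) of the 43 members tested, grouped by class, with NR as red circles and SP as blue squares; open symbols did not pass an adjusted p of 0.05 and dotted lines mark 2-fold. PSMB10, PSME1 and PSME2 lie above the upper line, the constitutive beta ring lies above 0 throughout, and the cap lies around 0.

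No gene of the constitutive beta ring fell. In NR 6 of its 7 genes rose and in SP 6 of 7, against 36.4% of all genes higher in each comparison, and the median log2 fold change was 0.34 in both. Summed over the 7 genes the level was 1367 ± 29.2 CPM in the NR group, 1368 ± 36.8 in the SP group and 988 ± 25.4 in Ab (SD, n = 3). PSMB3 (chr17:36908994-36920478, plus strand), a structural subunit without a proteolytic site, had 119, 114 and 110.3 CPM in the NR group, 117, 109 and 116 in the SP group and 64.3, 61.6 and 62.7 in Ab. Its libraries did not overlap between either particle group and Ab, with a log2 fold change of 0.84 ± 0.05 (adjusted p = 1.82e-14) in NR and 0.83 ± 0.06 (adjusted p = 1.94e-13) in SP. PSMB4 and PSMB2, also structural, were next, at 0.71 ± 0.04 and 0.69 ± 0.05 in NR and 0.71 ± 0.05 and 0.65 ± 0.05 in SP (SE).

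The catalytic subunits had smaller fold changes than PSMB2, PSMB3 and PSMB4, a difference that was not tested. PSMB5, the chymotrypsin-like subunit, had 70.9, 70.2 and 63.8 CPM in the NR group, 65.5, 63.9 and 67.6 in the SP group and 54.2, 50.05 and 55.2 in Ab. Its log2 fold change was 0.34 ± 0.06 (adjusted p = 1.23e-05) in NR and 0.28 ± 0.06 (adjusted p = 0.000182) in SP. PSMB6, the caspase-like subunit, was at 0.13 ± 0.05 (adjusted p = 0.0244) in NR and 0.11 ± 0.05 (adjusted p = 0.0647) in SP, and its call in NR was lost when the trend with transcript length and GC content was removed (0.01) and when NR replicate 1, NR replicate 3 or Ab replicate 3 was left out (0.09 to 0.12), and also with no filter beyond 1 count (0.12) and with at least 10 counts in every library (0.11). PSMB7 was at 0.09 ± 0.04 (adjusted p = 0.0598) in NR and 0.13 ± 0.05 (adjusted p = 0.0180) in SP, and its call in SP was lost without SP replicate 1, Ab replicate 2 or Ab replicate 3 (0.08 to 0.11) and with the same trend removed (0.10). Calls were also gained, PSMB6 in SP and PSMB7 in NR each passing in 2 of 14 alternative settings. PSMB1, the structural gene with the smallest rise in NR, was at 0.31 ± 0.05 (adjusted p = 1.27e-06) in NR and 0.34 ± 0.05 (adjusted p = 4.59e-07) in SP.

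**Figure D2:**
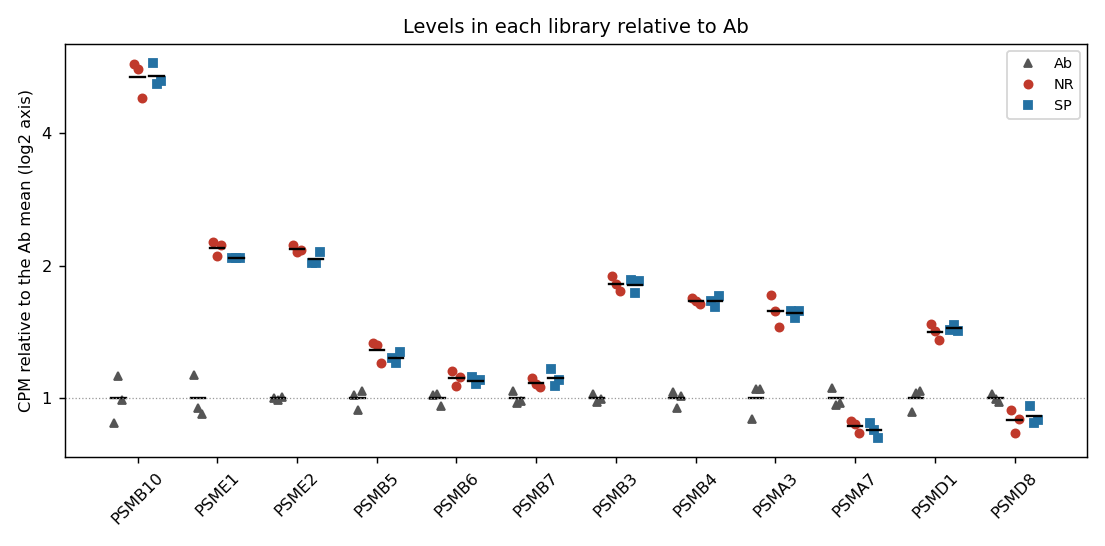
Level of 12 members in each library, as CPM divided by the Ab mean (log2 axis), with Ab as grey triangles, NR as red circles and SP as blue squares; black lines are group means of 3 libraries. PSMB10, PSME1 and PSME2 are at least doubled in both particle groups, PSMB6 and PSMB7 stay close to 1, and PSMA7 and PSMD8 lie below it.

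In the alpha ring 3 of 7 genes rose, 2 fell and 2 did not pass in NR, and 4 rose, 2 fell and 1 did not pass in SP. The shares past the threshold, 71.4% and 85.7%, stood against 72.7% and 73% of all genes, so the count in NR was near the background. PSMA2 passed in SP (log2 fold change 0.44 ± 0.18, adjusted p = 0.0302), a call lost in 5 of 14 alternative settings. In NR it did not pass, although it did in 3 of 14 alternative settings. PSMA3 had 122, 112 and 103 CPM in the NR group, 112, 109 and 113 in the SP group and 64.1, 74.6 and 74.97 in Ab. Every particle library was above every Ab library, and its log2 fold change was 0.63 ± 0.07 (adjusted p = 3.05e-08) in NR and 0.61 ± 0.06 (adjusted p = 4.65e-10) in SP. PSMA5 rose by 0.55 ± 0.05 and 0.58 ± 0.05 and PSMA4 by 0.20 ± 0.05 and 0.17 ± 0.05 (log2 fold change ± SE in NR and SP). PSMA7 fell in both, at -0.24 ± 0.04 (adjusted p = 2.53e-05) in NR and -0.27 ± 0.05 (adjusted p = 1.08e-05) in SP. PSMA1, the gene of the ring with the lowest fold change, had 9.38, 7.62 and 8.12 CPM in the NR group, 9.70, 8.34 and 7.85 in the SP group and 14.2, 14.1 and 16.5 in Ab. All particle libraries lay below all Ab libraries, with a log2 fold change of -0.84 ± 0.11 (adjusted p = 1.2e-07) in NR and -0.81 ± 0.11 (adjusted p = 2.13e-07) in SP.

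The fold of PSMA1 is uncertain, since 67.0% of its canonical transcript is shared with another gene on the same strand. The same holds for PSMA2 (100%), PSMA6 (81.4%) and PSMD9 (28.8%). These genes and PSMB10 were low per length. In Ab they ranged from 1.13 to 12.5 CPM per kilobase, while the 4 alpha-ring genes with less sharing ranged from 44.5 to 448. All 42 members with less sharing on that strand had a median of 53.0. The lowest tested among them, PSMC1 at 10.5 and PSMG4 at 13.1, were near PSMA1. The overlapping protein-coding genes themselves held few counts, between 0 and 8 over the 9 libraries beside PSMA1, PSMA2, PSMA6 and PSMD9. On the opposite strand, PSMC1 shares 83.2% with NRDE2 and PSMD7 shares 51.6% with a long noncoding gene, and without a stated strand setting such reads cannot be told apart. Pseudogenes of PSMA6 held 149.6% of the counts of PSMA6 itself. Among the 36 tested members that share under 20% on either strand, 20 rose and 8 fell in NR, and 20 rose and 4 fell in SP. Of these members 77.8% and 66.7% passed, near the 72.7% and 73% of all genes.

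**Figure D3:**
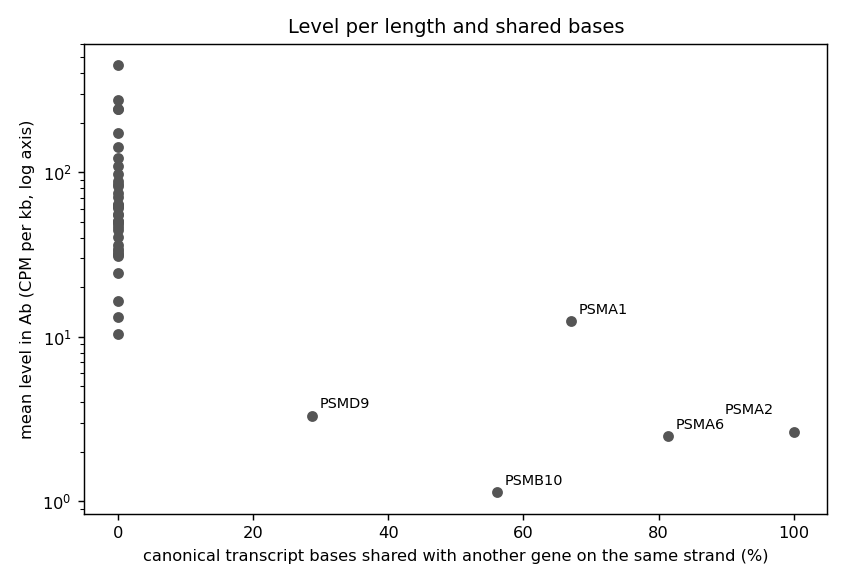
Mean level in Ab (CPM per kilobase of the canonical transcript, log axis) of members above 0.1 CPM against the share of that transcript's bases annotated to another gene on the same strand (%); each point is a gene. The 5 named genes with at least 20% shared lie between 1.13 and 12.5 CPM per kilobase.

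In the cap 52.9% of genes passed in NR and 35.3% in SP, below the 72.7% and 73% of all genes, and in the core 78.6% and 85.7% passed. Of 17 cap genes tested, 4 rose, 5 fell and 8 did not pass in NR, with a median log2 fold change of -0.03 (0.01 with the trend with length and GC content removed). PSMD2 was among those that fell in NR (-0.10 ± 0.04, adjusted p = 0.0471), a call lost in 8 of 14 alternative settings. In SP 4 rose, 2 fell and 11 did not pass, with a median of -0.0044 that ran from -0.022 to 0.052 over the alternatives and turned its sign with the scaling, tool, filter, library left out and trend (0.052 with the trend removed), so no direction is read from it. Of the 14 core genes, 9 rose and 2 fell in NR (median 0.32) and 10 rose and 2 fell in SP (median 0.31). The summed level of the core was 2370.4 ± 77.2 CPM in the NR group, 2362 ± 64.1 in SP and 1895 ± 29.9 in Ab, and that of the cap was 2456 ± 34.9, 2498 ± 60.0 and 2367 ± 23.0 CPM (SD, n = 3). The difference between the classes was not tested.

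PSMD1, a scaffold of the base, was the cap gene with the highest fold, at 178, 172 and 164 CPM in the NR group, 173, 178 and 172 in the SP group and 113, 125 and 126 in Ab. The particle libraries were all above Ab, with a log2 fold change of 0.48 ± 0.05 (adjusted p = 1.84e-09) in NR and 0.50 ± 0.05 (adjusted p = 9.77e-10) in SP. PSMC4, an ATPase of the base and its lowest gene in NR, was at -0.14 ± 0.05 (adjusted p = 0.0176) in NR and -0.08 ± 0.06 (adjusted p = 0.193) in SP, and the call in NR was lost without NR replicate 3 (-0.13). In the lid, PSMD8, the lowest in NR, was at -0.19 ± 0.05 (adjusted p = 0.00106) in NR and -0.16 ± 0.05 (adjusted p = 0.00562) in SP and PSMD13, the highest in both, at 0.25 ± 0.06 (adjusted p = 0.000966) in NR and 0.27 ± 0.07 (adjusted p = 0.000746) in SP. PSMD14, the lid's deubiquitinase, was at 0.06 ± 0.05 in NR and 0.05 ± 0.06 in SP and did not pass, although it passed in 1 of 14 alternative settings in each.

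All 7 assembly chaperones passed in both comparisons, 4 higher and 3 lower, against 36.4% of all genes higher and 36.4% (NR) and 36.6% (SP) lower, so the split between directions was near that of all genes. PSMG3 and PSMG4 form a pair that acts on the alpha ring, and PSMG3 fell, at -0.84 ± 0.06 (adjusted p = 1.06e-13) in NR and -0.88 ± 0.05 (adjusted p = 3.55e-14) in SP, while PSMG4 rose, at 0.82 ± 0.11 (adjusted p = 7.07e-08) in NR and 0.82 ± 0.11 (adjusted p = 9.23e-08) in SP. PSMG4 had 18.97, 16.5 and 20.6 CPM in the NR group, 21.1, 17.2 and 17.7 in the SP group and 9.06, 11.4 and 10.5 in Ab. The partners PSMG1 and PSMG2 also parted, PSMG1 at -0.35 ± 0.05 in NR and -0.44 ± 0.06 in SP and PSMG2 at 0.56 ± 0.07 and 0.35 ± 0.07 (log2 fold change ± SE). PSMD9, a chaperone of the base, had 5.20, 5.32 and 4.56 CPM in the NR group, 4.28, 4.36 and 3.996 in the SP group and 8.19, 9.69 and 9.22 in Ab, with -0.87 ± 0.14 (adjusted p = 1.75e-06) in NR and -1.13 ± 0.14 (adjusted p = 2.32e-08) in SP, and it was the one member more than 2-fold lower in SP. PSMD5 and PSMD10, of the same role, rose by 0.34 ± 0.05 and 0.31 ± 0.05 in NR. Among the other activators, PSME4 rose, at 0.41 ± 0.05 (adjusted p = 2.61e-08) in NR and 0.51 ± 0.05 (adjusted p = 7.35e-10) in SP, and PSME3, the nuclear activator, was at -0.12 ± 0.04 (adjusted p = 0.0201) in NR and -0.09 ± 0.05 (adjusted p = 0.0703) in SP, a call in NR that was lost without NR replicate 2 or Ab replicate 2 (-0.12 and -0.11) and with library totals only (-0.09). PSME3 passed in SP in 3 of 14 alternative settings. PSMA8 and PSMB11, the testis and thymus forms, had 0 counts and 1 count over all libraries.

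NR and SP were set against each other to ask whether the kind of particle mattered for these genes. By the study's text the rods and spheres also differ in size, supplier and measured surface charge. Shape cannot be told apart from these here. Of 14903 genes tested, 0.443% passed, and 0 of 43 members did by edgeR's quasi-likelihood test. At an unadjusted p under 0.05 there were 4 members (PSMD2, PSMD12, PSMG2 and PSME4), against 12.9% of all genes. DESeq2 also called 0 members. NR and SP libraries did not overlap for 10 members, against 17.9% of all genes. Members' log2 fold changes ran from -0.13 to 0.26. PSMG2 had the smallest p, with 47.6, 52.3 and 52.99 CPM in the NR group, 46.1, 43.5 and 42.7 in the SP group and 33.5, 33.8 and 34.5 in Ab, and although its NR and SP libraries did not overlap, its log2 fold change of 0.21 ± 0.06 (adjusted p = 0.107) passed only without NR replicate 1 (0.26 ± 0.06, adjusted p = 0.0429). PSME1 and PSME2 were at 0.08 ± 0.04 (adjusted p = 0.414) and 0.08 ± 0.05 (adjusted p = 0.451), and PSMB10 was at 0.00 ± 0.14, a value without a readable sign.

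Genes that act with the proteasome were taken as lists. Of 10 genes that regulate proteasome genes, 1 rose and 7 fell in NR and 3 rose and 7 fell in SP, with medians of -0.62 and -0.59. Of all genes tested, 36.4% were higher in each comparison, 36.4% lower in NR and 36.6% lower in SP, and every list count here is to be read against these shares. NFE2L1, the transcription factor that raises proteasome genes when proteasome activity falls, had 209, 214 and 219 CPM in the NR group, 228, 233 and 219 in the SP group and 579.6, 544 and 561 in Ab. Every particle library was below every Ab library, and its log2 fold change was -1.42 ± 0.04 (adjusted p = 2.07e-21) in NR and -1.33 ± 0.04 (adjusted p = 3.98e-20) in SP. Its small Maf partners fell too, MAFF at -2.07 ± 0.06 and -2.03 ± 0.06, MAFG at -1.21 ± 0.06 and -1.22 ± 0.06 and MAFK at -1.14 ± 0.06 and -1.27 ± 0.06 in NR and SP. FOXO4, a forkhead factor, rose, at 1.34 ± 0.11 (adjusted p = 4.98e-12) in NR and 1.38 ± 0.11 (adjusted p = 7.81e-12) in SP. DDI2, the protease that activates NFE2L1, was at -0.63 ± 0.05 (adjusted p = 2.37e-11) in NR and -0.51 ± 0.05 (adjusted p = 2.35e-09) in SP, and its fold is uncertain, since 20.6% of its canonical transcript is shared with another gene on the same strand. MAFK shares 23.9% with a gene on the opposite strand.

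**Figure D4:**
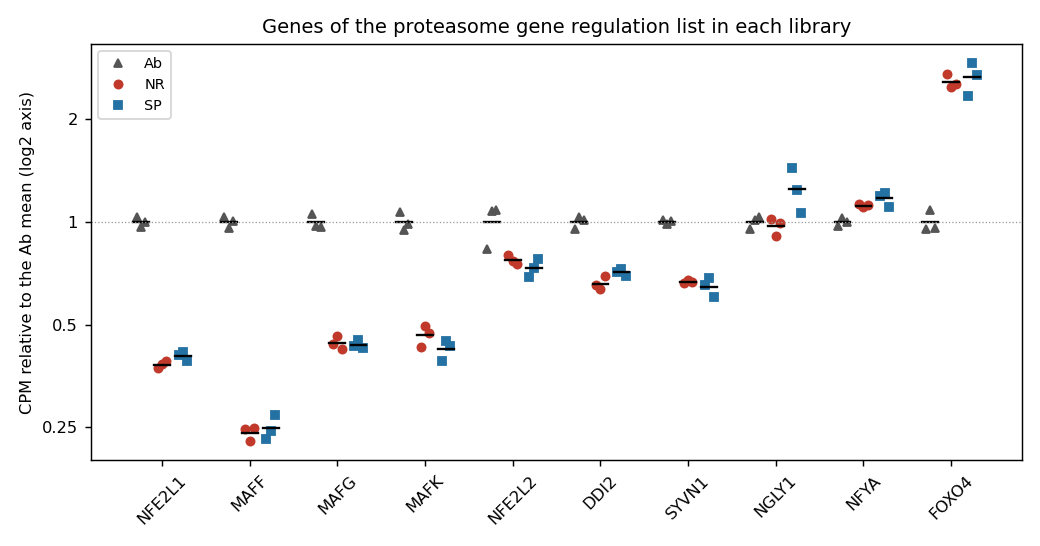
Level of the 10 genes of the proteasome gene regulation list in each library, as CPM divided by the Ab mean (log2 axis), with Ab as grey triangles, NR as red circles and SP as blue squares; black lines are group means of 3 libraries. NFE2L1, MAFF, MAFG and MAFK lie below 0.5 in both particle groups and FOXO4 lies above 2.

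Of 13 subunits and partners whose symbol falls outside the rule, 4 rose and 8 fell in both comparisons, against 36.4% of all genes higher and 36.4% (NR) and 36.6% (SP) lower. SEM1, a lid subunit, was highest, at 0.74 ± 0.06 (adjusted p = 1.63e-11) in NR and 0.65 ± 0.06 (adjusted p = 1.56e-10) in SP. ZFAND2A, a proteasome partner induced by arsenite, was lowest in NR, at -1.02 ± 0.07 (adjusted p = 1.7e-13) in NR and -0.96 ± 0.07 (adjusted p = 1.15e-12) in SP. ADRM1, a ubiquitin receptor of the base with 26.7% of its bases shared on the opposite strand, was at -0.83 ± 0.05 (adjusted p = 1.87e-14) in NR and -0.91 ± 0.05 (adjusted p = 2.11e-14) in SP. POMP, which matures the core, rose by 0.35 ± 0.06 and 0.33 ± 0.06, and PSMF1, a proteasome inhibitor in vitro, was at -0.28 ± 0.06 and -0.26 ± 0.06.

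Upstream of the proteasome, 9 of 11 genes for ubiquitin shuttles and the segregase fell in both comparisons, against 36.4% of all genes in NR and 36.6% in SP. VCP, the segregase itself, was the single gene of that list to rise, with 327, 328 and 338 CPM in the NR group, 349, 347 and 345 in the SP group and 198, 191 and 195 in Ab and 0.74 ± 0.04 (adjusted p = 4.27e-15) in NR and 0.81 ± 0.04 (adjusted p = 1.61e-15) in SP. Of 6 ubiquitin and E1 genes, 3 rose and 1 fell in both, 4 of 6 past the threshold against 72.7% and 73% of all genes. UBB, a polyubiquitin gene with 49.4% shared on the opposite strand, was at 0.77 ± 0.06 (adjusted p = 2.91e-09) in NR and 0.56 ± 0.06 (adjusted p = 8.91e-10) in SP. RPS27A, which encodes ubiquitin fused to a ribosomal protein, did not pass in either (-0.65 ± 0.30 and -0.73 ± 0.30). Its Ab libraries were split, at 389.9, 728 and 778 CPM, and without Ab replicate 1 it passed in both, at -0.91 and -0.98, as it did with DESeq2, at -0.65 and -0.72. In the COP9 signalosome, a complex related to the lid, 4 of 9 genes rose and 3 fell in both, a share of 77.8% past the threshold that was near the 72.7% and 73% of all genes. They ran from COPS2 at -0.56 ± 0.16 to COPS4 at 0.67 ± 0.08 in NR. The COPS2 call in NR was lost without any 1 of the NR libraries or Ab replicate 2 or 3 (-0.64 to -0.49). It was also lost with no filter beyond 1 count (-0.57) and with the replicate block (-0.55). Removing the trend with length and GC content lost it in NR (-0.39) and in SP (-0.34). In SP the call was lost as well without any 1 of the SP libraries or Ab replicate 2 (-0.48 to -0.41).

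Peptide supply partners of the immunoproteasome numbered 10, of which 7 were tested. In NR 4 rose and 1 fell, and in SP 4 rose and none fell, against 36.4% of all genes higher in each comparison. B2M, the light chain of MHC class I, had 3026, 2996 and 2929 CPM in the NR group, 2598, 2631 and 2862 in the SP group and 1897, 1936 and 1878 in Ab, with 0.62 ± 0.04 (adjusted p = 1.06e-14) in NR and 0.48 ± 0.04 (adjusted p = 1.36e-10) in SP. IRF2, a factor of the interferon response, was at 0.73 ± 0.08 (adjusted p = 6.39e-09) in NR and 0.57 ± 0.08 (adjusted p = 8.99e-07) in SP. IRF1 did not pass, at 0.18 ± 0.09 and 0.09 ± 0.10. NLRC5, the transactivator of MHC class I genes, was lowest, at -0.15 ± 0.06 (adjusted p = 0.0269) in NR and -0.12 ± 0.06 (adjusted p = 0.0896) in SP, and its call in NR was lost with DESeq2 (-0.15), with library totals only (-0.13) and without NR replicate 1 or Ab replicate 3 (-0.13 and -0.15). In SP it passed with the trend with length and GC content removed (-0.16) and without SP replicate 1 (-0.16).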

How the data were processed

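Per the authors' methods and the labels' processing notes, reads were aligned with HISAT2 2.1.0 and the authors deposited raw counts per Ensembl gene for each library. The build is given as human in one source and as mm9 in another, and the identifiers are human. The strand setting and annotation release are not given in the sources used here. Counts were tested as deposited with edgeR 4.0.16 (quasi-likelihood, TMM scaling, at least 10 counts by filterByExpr) on the 6 libraries of each comparison, with Benjamini-Hochberg adjustment over all genes tested and a threshold of 0.05. The SE of a log2 fold change is not an output of that test. It was derived as the absolute fold change divided by the square root of the F statistic. Symbols, positions and transcript lengths came from GENCODE 44 lifted to GRCh37, and CPM were TMM-scaled over the 9 libraries. Members and lists were chosen with earlier results of these data known. The genes named were the immunoproteasome genes, their constitutive counterparts, PSME3, PSME4, the lowest and highest fold of each class and list in NR against Ab, and the smallest p in NR against SP. Other genes named (such as PSMA7, PSMB4, PSMG3, ADRM1, MAFG, DDI2 and B2M) were chosen after their values were seen, as was the 20% limit on shared bases. DESeq2 1.42.0, other scalings and filters, a replicate block, a correction for length and GC content, and leaving out each library were tried. The test was checked on simulated counts with few changed genes and the same spread for every gene. Most genes passed in the comparisons with Ab, a setting that this check does not cover. Some genes of the lists are not reported here.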

Additional observations from a re-analysis of the deposited data

How the results depend on the processing

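Of the members past the threshold, 27 of 32 in NR against Ab and 25 of 29 in SP against Ab kept their side of it under all 14 alternative settings, and 0 of them changed sign. With a minimum of 1.5-fold in place of 2-fold, 8 members were higher and 3 lower in each of NR and SP against Ab, in place of 3 and 0 in NR and 3 and 1 in SP. Of all genes 22.1% were higher and 20.2% lower at 1.5-fold in NR, and 21.9% and 20.5% in SP. Without members that share at least 20% of their bases, 4 were lower in SP against Ab in place of 7, and 0 were 2-fold lower. In NR against SP, leaving out 1 library gave between 0 and 1 member higher, the 1 being PSMG2 without NR replicate 1. The fold change of PSMB10 between NR and SP reversed around 0, to -0.00065 with library totals only, -0.00656 with the replicate block, -0.032 with the trend with length and GC content removed, and -0.052 to 0.070 with 1 library left out, and the cause was not tested. Gene by gene, alternatives for NR against SP are given only for PSMG2, PSMB10, PSME1 and PSME2. That restriction was made after a first run over all 34 named genes tested, in which 17 changed sign at least once (39 changes in 466 fits, all at log2 fold changes of at most 0.06), so no sign is read from those values.

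Replicate numbers did not pair the samples. The correlation of same-numbered deviations was -0.11 to 0.01 in NR against Ab, 0.03 to 0.04 in SP against Ab (each best with its own number) and -0.02 to 0.00 in NR against SP. With the replicate block 21 members were higher and 10 lower in NR against Ab, 22 and 7 in SP against Ab, and 0 in NR against SP. Depth limits PSMB10, at 19 to 33 counts in Ab, and PSMA6, at 476 counts over the 9 libraries, and PSMB9 and PSMB8 cannot be read at all.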

Other observations

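COL1A2, a collagen gene of the fibroblast list, had 37, 0 and 0 counts in the NR group, 49, 49 and 43 in the SP group and 198, 278 and 33 in Ab. It passed the test in neither comparison with Ab, nor did COL1A1 and COL3A1, while DCN, LUM and PDGFRB, the other 3 of the 6 genes in the list, were higher in both particle groups.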
